A study of Saccharomyces cerevisiae with 12 samples.

Results

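SRL3 (YKR091W), PRM5 (YIL117C) and AFR1 (YDR085C) are 3 of the 5449 budding yeast genes measured on these arrays, and all 3 were among the 5345 genes kept after a filter on dim signals. They were selected on measured values, because their rise with the dye Congo Red, on the log2 scale, was about as large or larger in a gcn5 mutant than in wild type. Their Congo Red rises, and the difference between the strains in those rises, were therefore used in choosing them and are given below as descriptions without a test. The difference between the strains averaged over treatment was not used in the choice, and it was tested.

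In this study 4 groups of Saccharomyces cerevisiae of the BY4741 background were compared, with 3 samples each, 12 Affymetrix arrays in all. They were a gcn5 mutant with Congo Red, the gcn5 mutant untreated, wild type with Congo Red and wild type untreated. A growing culture in YPD medium had been divided, and the dye was added to one portion at 30 µg/ml, with 3 h of further growth for both. All 4 groups share the auxotrophies of BY4741, a MATa haploid, and the labels name the mutant only as gcn5.

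Congo Red binds chitin and glucan and disturbs assembly of the cell wall. Wall damage is sensed at the plasma membrane and passed through Rho1, Pkc1 and a MAP kinase cascade to the kinase Slt2, which activates the transcription factor Rlm1. Gcn5 acetylates histones as the catalytic subunit of SAGA and ADA, coactivator complexes that act at many inducible promoters. SRL3 encodes a regulator of the G1/S transition related to Whi5, PRM5 a membrane protein induced by mating pheromone and by cell integrity signalling, and AFR1 a protein needed to shape the mating projection and to dampen signalling by the pheromone receptor Ste2.

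Array medians ran from 8.98 to 9.05 in log2 units. GCN5 read between 3.02 and 3.61 in the mutant with Congo Red and between 3.36 and 4.08 in the untreated mutant, against 8.20 to 8.30 in wild type with Congo Red and 8.13 to 8.33 in untreated wild type, so the strain labels held on all 12 arrays. The 5 a-cell markers MFA1, MFA2, STE2, STE6 and BAR1 were above log2 4, the level taken here as dim, on all 12 arrays, and the alpha pheromone gene MF(ALPHA)1 was below it on all 12. The other alpha cell and diploid markers were above it on all 12, STE3 at 4.81 to 5.53, MF(ALPHA)2 at 4.65 to 5.81, IME1 at 6.18 to 7.37, IME2 at 6.57 to 8.39 and SAG1 at 7.92 to 8.45. Of the auxotrophic markers of this background URA3 and MET17 read below log2 4 throughout, LEU2 between 3.93 and 5.29 and HIS3 between 9.24 and 10.08. Among the 3 samples of a group the deviation from the group mean was widest in the mutant samples numbered 3, with an SD over genes of 0.309 with Congo Red and 0.293 untreated, against 0.145 to 0.228 on the other 10 arrays. The number of arrays limits the precision.

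SRL3 was high in both Congo Red groups and low in both untreated groups. Its log2 level was 10.09, 9.86 and 10.18 in the mutant with Congo Red, against 7.14, 7.13 and 7.62 in the untreated mutant. In wild type it was 10.78, 10.82 and 11.07 with Congo Red, against 8.13, 8.18 and 7.66 untreated. Every Congo Red array lay above every untreated array of either strain, and within each treatment every mutant array lay below every wild type array. The gap between the untreated strains was narrow at the edge, since the highest mutant array read 7.62 and the lowest wild type array 7.66.

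PRM5 was highest in wild type with Congo Red and, of the 3 genes, had the widest separation between the untreated strains. Its log2 level was 10.90, 11.02 and 10.16 in the mutant with Congo Red, against 7.76, 7.97 and 7.71 in the untreated mutant. In wild type it was 11.55, 11.52 and 11.64 with Congo Red, against 9.55, 9.51 and 9.28 untreated. No 2 of the 4 groups overlapped. The mutant Congo Red sample numbered 3 read well below the other two of its group.

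AFR1 varied more among the samples of a group. Its log2 level was 8.91, 8.95 and 7.94 in the mutant with Congo Red, against 6.98, 6.71 and 6.26 in the untreated mutant. In wild type it was 9.94, 10.24 and 9.66 with Congo Red, against 7.78, 8.36 and 7.37 untreated. Within each strain the treated and untreated arrays did not overlap, and within each treatment the strains did not overlap. The sample numbered 3 was the lowest of its group in all 4 groups.

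**Figure D1:**
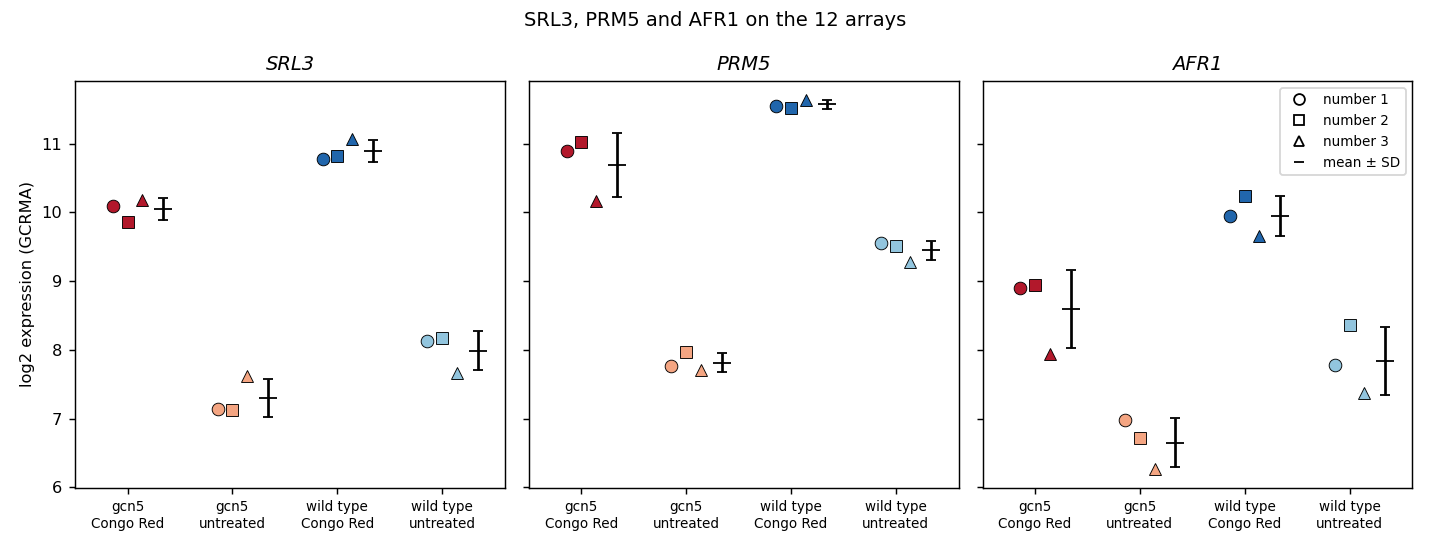
Log2 expression of SRL3, PRM5 and AFR1 (vertical axis) on each of the 12 arrays, by group, with marker shape giving the sample number and bars the mean ± SD of 3 arrays. Congo Red arrays stand above untreated arrays of the same strain, and mutant arrays below wild type arrays of the same treatment, for all 3 genes.

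SRL3 was higher with Congo Red by 2.75 ± 0.17 in the mutant, a 6.72-fold change, and by 2.90 ± 0.17 in wild type, a 7.46-fold change (log2 difference ± SE of the limma fit, n = 3 arrays per group). AFR1 was higher by 1.95 ± 0.32 in the mutant, 3.85-fold, and by 2.11 ± 0.32 in wild type, 4.32-fold. PRM5 was higher by 2.88 ± 0.19 in the mutant, 7.35-fold, and by 2.12 ± 0.19 in wild type, 4.36-fold. The rise in the mutant minus the rise in wild type was -0.15 ± 0.24 for SRL3, -0.16 ± 0.45 for AFR1 and 0.75 ± 0.27 for PRM5 (SE). For SRL3 and AFR1 these differences were smaller than their standard errors. Across all 5345 genes, 1.09% were called higher and 0.0748% lower with Congo Red in the mutant, and 5.33% higher and 3.91% lower in wild type, at an adjusted p under 0.05 (limma). Every Congo Red array above every untreated array, as for these 3 genes, was seen for 5.99% of genes in the mutant and 13.8% in wild type.

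Deviations from the group means ran together between equally numbered samples of a strain, so the rise was also read within each number, taken as one divided culture. For SRL3 it was 2.95, 2.74 and 2.56 in the mutant, against 2.64, 2.65 and 3.41 in wild type, and the strains overlapped. For AFR1 it was 1.93, 2.24 and 1.68 in the mutant, against 2.16, 1.88 and 2.28 in wild type, again with overlap. For PRM5 it was 3.14, 3.05 and 2.45 in the mutant, against 2.00, 2.01 and 2.36 in wild type. The lowest mutant rise, 2.45, stood close to the highest wild type rise, 2.36. Without the mutant Congo Red sample numbered 3 the difference for PRM5 was 1.02 ± 0.15 (SE). Leaving out 1 array at a time, the difference ran from -0.25 to 0.01 for SRL3 and from -0.43 to 0.16 for AFR1, so neither held one direction.

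In the mutant 17 genes were at least 2-fold higher with Congo Red at an adjusted p under 0.05, which is 0.318% of the genes tested. Ordered by mutant rise minus wild type rise, PRM5 was the second of the 17, SRL3 the fourth and AFR1 the fifth. CWP1, a wall mannoprotein gene, came first at 1.51 and YCR099C, a gene without an assigned function, lay between PRM5 and SRL3 at 0.05, so the 3 genes were not alone in this part of the order. The value for CWP1 had an SE of 0.79, and its untreated mutant arrays were spread widely, from 7.69 to 10.24. Just below AFR1 came YKL107W at -0.40 and YPS3, a gene of a wall-anchored aspartic protease, at -0.53. The other 10 ran from PST1 at -0.54 to KDX1, a relative of the Slt2 kinase, at -1.98. The mutant call for CWP1 was lost without some single arrays, with an adjusted p up to 0.132 without the Congo Red sample numbered 1, and those for YCR099C and YKL107W up to 0.126 and 0.123 (limma). The mutant calls for YNR065C and DIA1 were also lost without some single arrays (limma adjusted p up to 0.157 and 0.0646). Of the 85 genes at least 2-fold higher in wild type, 1.59% of those tested, 83 had a smaller log2 rise in the mutant, with a median difference of -0.75. These 85 were chosen on the wild type rise that is then subtracted, and that choice itself favours differences below 0. PRM5, YCR099C, SRL3 and AFR1 were the top 4 of these 85, in that order, and DFG5, a gene of a wall-linked protein, was next at -0.27. The places of PRM5, SRL3 and AFR1 in both orders follow from their choice on these same values and give no separate support.

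**Figure D2:**
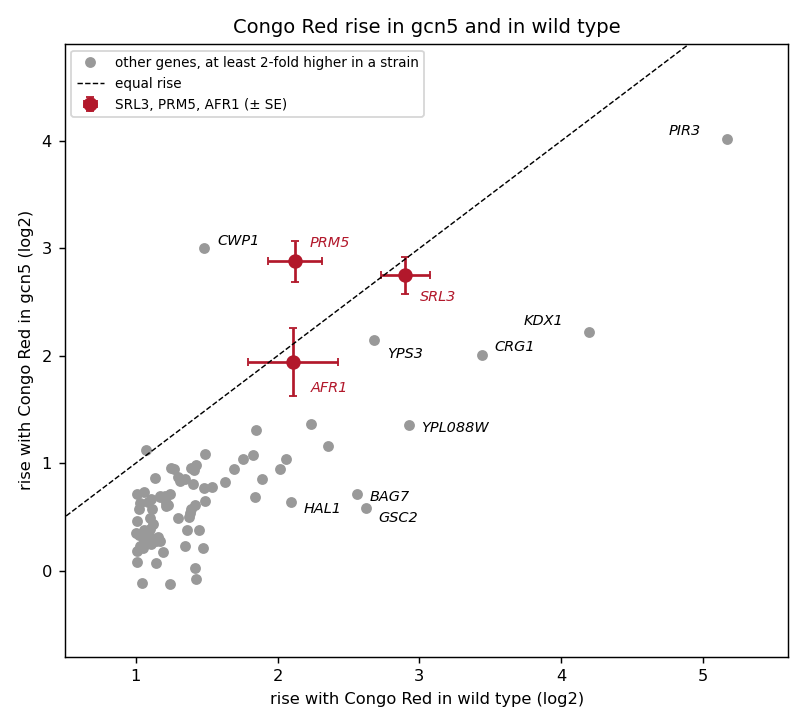
Log2 rise with Congo Red in the gcn5 mutant (vertical axis) against that in wild type (horizontal axis) for genes at least 2-fold higher in one of the strains at an adjusted p under 0.05. SRL3 and AFR1 lie within 1 SE of the dashed line of equal rise, PRM5 lies above it, and 83 of the 85 genes that passed in wild type lie below it.

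The level of all 3 genes was lower in the mutant. Averaged over the treated and untreated portions of each culture, SRL3 was lower by 0.77 on the log2 scale (-0.77 ± 0.12, SE, n = 3 cultures per strain; 1.71-fold; limma adjusted p = 0.0146). PRM5 differed by -1.25 ± 0.15 (SE; 2.39-fold; limma adjusted p = 0.00649) and AFR1 by -1.27 ± 0.28 (SE; 2.41-fold; limma adjusted p = 0.0393). All 3 mutant cultures lay below all 3 wild type cultures for each gene. How many of all genes do so was not counted. It is at least the 8.18% whose mutant arrays lay below every wild type array in both treatments. The culture means of SRL3 were 8.50 to 8.90 in the mutant, against 9.36 to 9.50 in wild type. Those of PRM5 were 8.94 to 9.49 in the mutant, against 10.46 to 10.55 in wild type, and those of AFR1 were 7.10 to 7.94 in the mutant, against 8.52 to 9.30 in wild type.

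Over all genes tested, 4.62% were called lower and 3.41% higher in the mutant in this contrast, with a median log2 difference of 0.01. Of the other 82 genes at least 2-fold higher with Congo Red in wild type, 19 or 23.2% were called lower in the mutant and 4 higher, with a median of -0.29. A smaller rise in the mutant also lowers an average over treatment, so these values do not show the untreated level of the 82 genes. Of the other 14 genes at least 2-fold higher in the mutant, 5 were called lower and 0 higher, namely YPL088W, PRM10, KTR2, DIA1 and YPS3. Without the wild type culture numbered 1 DIA1 and YPS3 lost the call (limma adjusted p = 0.0523 and 0.0973). The call for PRM5 was kept when any 1 culture was left out (limma adjusted p from 0.00509 to 0.0384). SRL3 lost it without the cultures numbered 1 or 2 of either strain (adjusted p from 0.0501 to 0.0655), and AFR1 lost it without the same 4 cultures (adjusted p from 0.0582 to 0.122). Without the mutant culture numbered 3 all 3 calls remained, with adjusted p = 0.00649 for SRL3, 0.00509 for PRM5 and 0.0496 for AFR1.

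**Figure D3:**
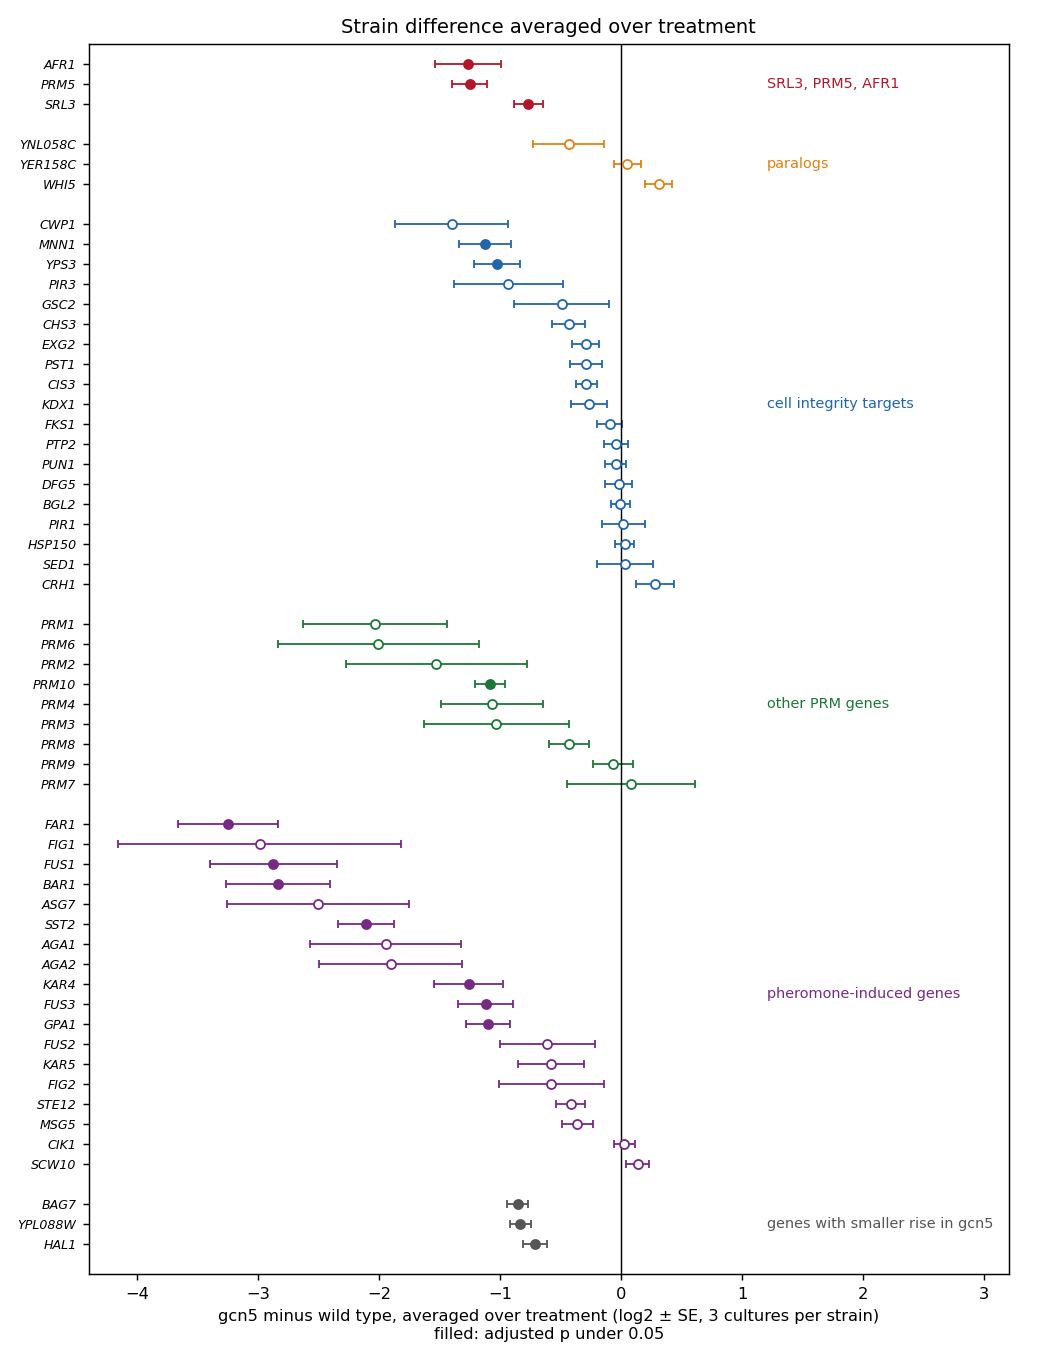
Difference of the gcn5 mutant from wild type averaged over treatment (horizontal axis, log2 ± SE, 3 cultures per strain) for SRL3, PRM5 and AFR1, their paralogs and the gene lists described here, with filled points for an adjusted p under 0.05. The 3 genes lie between -1.27 and -0.77, beside medians of -0.27 for the cell integrity targets and -1.19 for the pheromone-induced genes.

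The lower level was present with and without the dye. In Congo Red the mutant differed from wild type by -0.85 ± 0.17 for SRL3, -0.88 ± 0.19 for PRM5 and -1.35 ± 0.32 for AFR1 (log2 ± SE, n = 3 arrays per group). Untreated, it differed by -0.69 ± 0.17 for SRL3, -1.63 ± 0.19 for PRM5 and -1.19 ± 0.32 for AFR1. These single differences share arrays with the rises used in the choice and carry no test. Every mutant array below every wild type array, in both treatments, was seen for 437 of the 5345 genes, or 8.18%.

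Treated mutant cells can also be set beside wild type cells that never met the dye. This comparison contains the Congo Red rise used in the choice, so it is a description only. The share of all genes without overlap here was not counted. SRL3 stood 2.05 log2 units higher in the mutant with Congo Red than in untreated wild type, and PRM5 1.25 units higher, without overlap. For AFR1 the difference was 0.76, and the groups overlapped, at 7.94 to 8.95 in the mutant with Congo Red against 7.37 to 8.36 in untreated wild type.

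On a linear scale the same readings give another picture, because a like ratio on a lower level is a smaller amount. SRL3 had a mean signal of 1059.6 ± 115.9 in the mutant with Congo Red, against 159.0 ± 32.1 in the untreated mutant, and of 1903.7 ± 210.9 in wild type with Congo Red, against 257.4 ± 48.1 in untreated wild type (2 to the power of the log2 value, SD, n = 3). The gain in signal in the mutant was 54.7% of that in wild type for SRL3, 63.3% for PRM5 and 39.8% for AFR1. PRM5 thus had the larger gain in the mutant as a ratio and the smaller gain there as an amount. PRM5 gained 1483 signal units in the mutant and 2342 in wild type, and AFR1 gained 304 in the mutant and 764 in wild type.

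**Figure D4:**
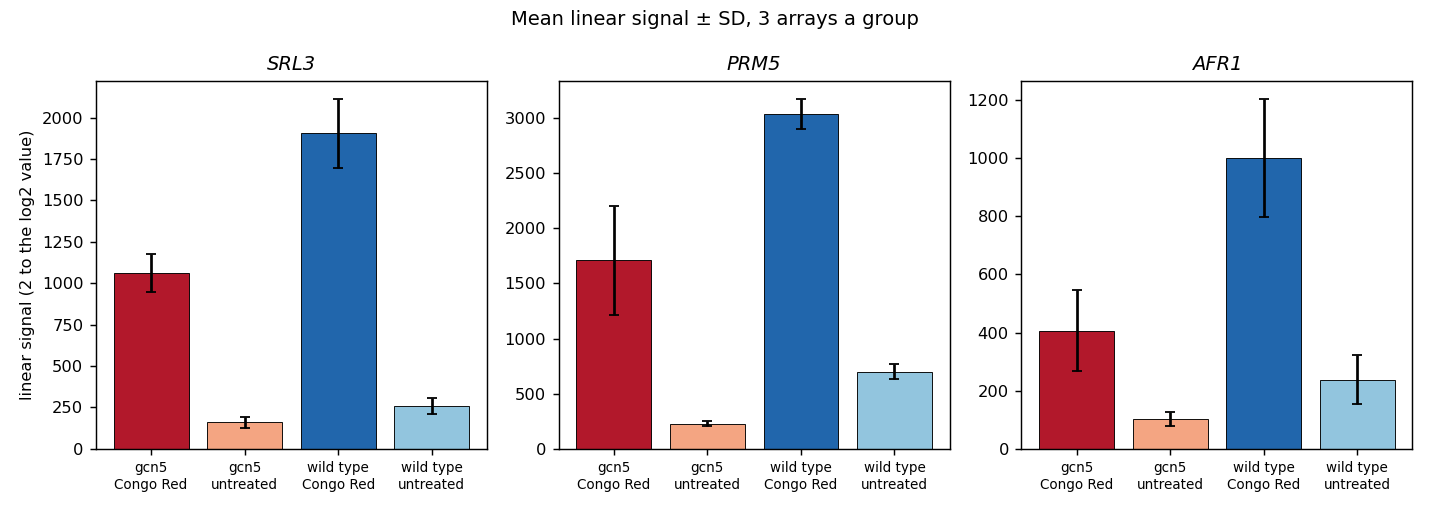
Mean linear signal (vertical axis, 2 to the power of the log2 value, starting at 0) of SRL3, PRM5 and AFR1 in the 4 groups, with SD bars over 3 arrays. The gain with Congo Red is smaller in the mutant than in wild type for each gene, at 54.7%, 63.3% and 39.8% of it.

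BAG7, YPL088W and HAL1, known from earlier results of these data for a much smaller Congo Red rise in the mutant, showed another arrangement. BAG7 encodes a GTPase activating protein for Rho1, YPL088W a putative aryl alcohol dehydrogenase and HAL1 a salt tolerance protein. In the untreated strains they stood close together, with the mutant differing from wild type by 0.07 ± 0.12 for BAG7, -0.05 ± 0.11 for YPL088W and 0.02 ± 0.12 for HAL1 (log2 ± SE). In Congo Red the mutant differed by -1.78 ± 0.12, -1.62 ± 0.11 and -1.44 ± 0.12 for these genes in that order. The rise in the mutant minus that in wild type was -1.85 for BAG7, -1.56 for YPL088W and -1.46 for HAL1, each past the threshold (limma adjusted p = 0.00129, 0.0013 and 0.00765). That difference is why they were set beside the 3 genes. These p-values and their pattern over the 4 groups therefore follow from the choice and give no separate support. BAG7, YPL088W and HAL1 were the 3 genes called in this contrast, 0.0561% of those tested, and 0 genes had a called larger rise in the mutant. BAG7 read near log2 4 in both untreated strains, where dim signals have little range. Leaving out any 1 of the 12 arrays kept these calls, and leaving out both mutant arrays numbered 3 ended that of HAL1 (-1.39; adjusted p = 0.0564). Averaged over treatment the 3 differed by -0.86, -0.83 and -0.71, so that average did not set them apart from SRL3, PRM5 and AFR1.

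Each of the 3 genes has a paralog from the whole genome duplication of yeast. WHI5, a repressor of G1/S transcription and the paralog of SRL3, had a Congo Red difference of -0.23 in the mutant and -0.11 in wild type, and neither passed (limma adjusted p = 0.891 and 0.819). The group means of WHI5 lay between 5.45 and 5.92. YNL058C, the paralog of PRM5, differed by 1.31 in the mutant and 1.25 in wild type, short of the threshold (adjusted p = 0.203 and 0.0589). With the culture as a block, which compares the portions directly, both passed (adjusted p = 0.0135 and 0.00393). By number its rise was 1.65, 1.77 and 0.49 in the mutant, against 1.25, 1.03 and 1.48 in wild type, so the mutant sample numbered 3 stood apart here too. YER158C, the paralog of AFR1, differed by -0.17 in the mutant and 0.61 in wild type (adjusted p = 0.938 and 0.0724). In wild type it passed with the block (adjusted p = 0.0418). Averaged over treatment none of the 3 paralogs passed between the strains, with differences of 0.31 for WHI5, -0.44 for YNL058C and 0.05 for YER158C (adjusted p = 0.152, 0.398 and 0.818).

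**Figure D5:**
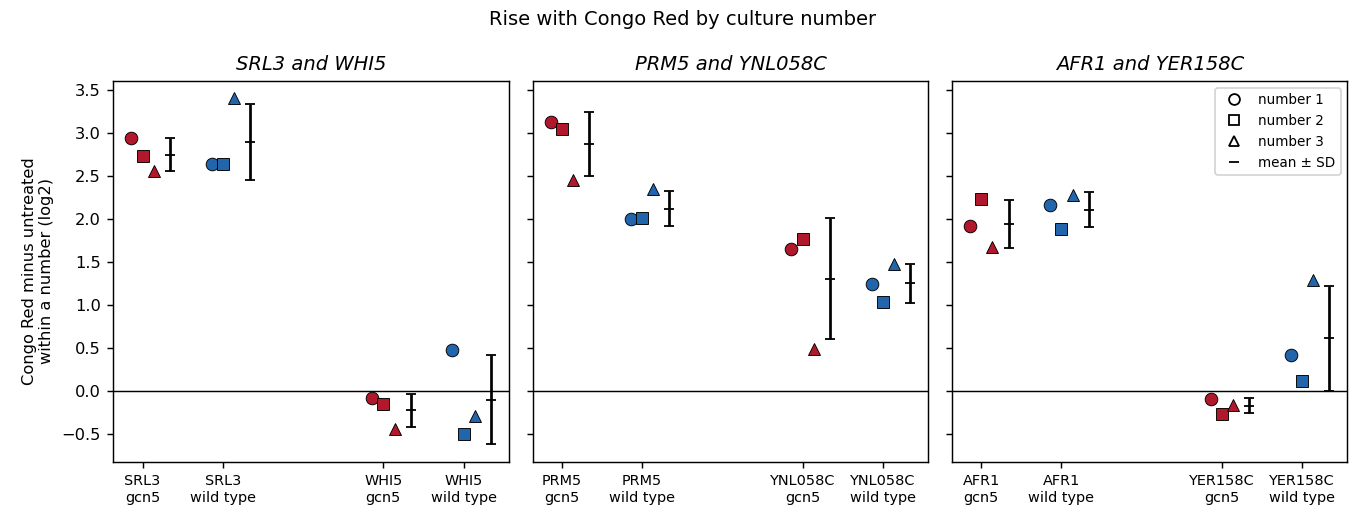
Congo Red minus untreated log2 value within a sample number (vertical axis) for SRL3, PRM5 and AFR1 and for the paralog of each, in the gcn5 mutant and in wild type, with bars for the mean ± SD of 3 cultures. In the mutant SRL3 and AFR1 lie between 1.68 and 2.95 and WHI5 and YER158C between -0.45 and -0.09, while YNL058C reads 1.65, 1.77 and 0.49. The rises of SRL3, PRM5 and AFR1 were used in choosing them.

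The genes next to them on the chromosome were also read. PXL1 and SRP40 flank SRL3, RHO3 and HIS5 flank PRM5, and TVP23 and SSS1 flank AFR1. None of the 6 passed between the strains averaged over treatment (limma adjusted p from 0.126 to 0.85) or with Congo Red in the mutant (adjusted p from 0.497 to 0.993). In wild type 1 of the 6 passed, SRP40, a nucleolar chaperone gene, at -0.58 ± 0.14 (SE; adjusted p = 0.027), a call lost without some single arrays (adjusted p up to 0.104 without the Congo Red sample numbered 2). RHO3, a polarity GTPase gene, fell by 0.31 there with the culture as a block (limma adjusted p = 0.0284, against 0.0547 without it). The block gave more calls over all genes too, with the counts stated at the end.

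Of 19 measured cell integrity target genes other than these 3, 9 rose with Congo Red in the mutant, 0 fell and 10 did not pass. In wild type 15 of them rose, 0 fell and 4 did not. The list's median log2 change was 0.79 in the mutant and 1.15 in wild type, beside -0.03 and -0.02 over all genes. With the culture as a block 14 rose in the mutant and 17 in wild type. With only the groups compared in the fit 4 rose in the mutant, the calls of CWP1, HSP150, PIR3, DFG5 and PST1 being lost, and 17 in wild type. Without the untreated mutant sample numbered 2 the mutant count was 6. KDX1 rose by 2.22 ± 0.22 in the mutant and 4.19 ± 0.22 in wild type, and PIR3, a wall protein attached to glucan, by 4.02 ± 0.54 and 5.16 ± 0.54 in the same order (SE). The rise was smaller in the mutant for 16 of the 19 by its estimate, with a median difference of -0.36. None of the 19 passed the test of that difference with all 12 arrays and no block, KDX1 coming nearest (limma adjusted p = 0.0588). The 3 genes GSC2, EXG2 and KDX1 passed with the culture as a block (adjusted p = 0.00149, 0.0413 and 0.0234). Without a block KDX1 passed with an intensity trend (adjusted p = 0.0427) and without the wild type Congo Red sample numbered 3 (0.036), and GSC2 without both mutant arrays numbered 3 (0.00654).

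Averaged over treatment 2 of the 19 were lower in the mutant, 0 were higher and 17 did not pass. The list's median was -0.27. YPS3 was lower by 1.03 on the log2 scale (-1.03 ± 0.19, SE; limma adjusted p = 0.0237), with a Congo Red rise of 2.15 in the mutant and 2.68 in wild type. MNN1, a mannosyltransferase gene, was at -1.13 ± 0.21 (SE; adjusted p = 0.0261) and did not pass with the dye, with -0.0029 in the mutant and -0.15 in wild type. Both strain calls were lost without some single cultures, with adjusted p up to 0.0973 for YPS3 without the wild type culture numbered 1 and up to 0.104 for MNN1 without the wild type culture numbered 2. The means for CWP1 and PIR3 were lower as well, at -1.40 and -0.93, but their cultures varied and they did not pass (adjusted p = 0.126 and 0.253).

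Among 10 measured components of the cell integrity pathway, 2 rose with Congo Red in the mutant and 4 in wild type, 0 fell in either, and 8 and 6 did not pass. SLT2 rose by 0.85 ± 0.15 in the mutant and 1.89 ± 0.15 in wild type, and RLM1 by 0.60 ± 0.12 and 1.22 ± 0.12 in the same order (SE). The membrane sensor genes MID2 and MTL1 rose in wild type by 0.84 and 0.83, and the call for MTL1 was lost without 3 of 6 single arrays (adjusted p up to 0.105 without the Congo Red sample numbered 2). Under the culture block 4 components rose in the mutant, MID2 and MTL1 being added, and 6 in wild type. The rise of SLT2 in the mutant minus that in wild type was -1.04, which passed with the block (adjusted p = 0.0413) and not without it (0.2). Leaving out single mutant arrays lost the mutant calls of SLT2 in 4 of 6 cases and of RLM1 in 6 of 6 (adjusted p up to 0.109 without the untreated sample numbered 2 and up to 0.207 without the untreated sample numbered 1). Averaged over treatment SLT2 was the only component to pass between the strains, at -0.52 ± 0.11 (SE; adjusted p = 0.0393), a call lost without 5 of the 6 single cultures (adjusted p up to 0.137 without the mutant culture numbered 2), and RLM1 stood at 0.08.

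PRM5 and AFR1 are also known as pheromone-regulated genes. Of the 9 other PRM genes measured, 1 rose with Congo Red in each strain, PRM10, by 1.36 ± 0.15 in the mutant and 2.24 ± 0.15 in wild type (SE; limma adjusted p = 0.00168 and 9.97e-06). Its rise was smaller in the mutant by estimate, at -0.87 ± 0.22 (SE), but this difference did not pass (adjusted p = 0.38). PRM10 was also lower in the mutant averaged over treatment, by 1.09 log2 units (-1.09 ± 0.12, SE; adjusted p = 0.0061), a call kept without each single culture. The other 8 did not pass with Congo Red in either strain. With the culture as a block PRM4 and PRM8 rose in wild type by 0.46 and 0.42, PRM9 fell there by 0.82 and PRM7 fell in the mutant by 0.64. Calls over all genes were also more numerous under the block, as stated at the end.

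Of 18 pheromone-induced genes outside the PRM group, 0 passed with Congo Red in the mutant, and 2 rose in wild type. The 2 that rose in wild type were MSG5, a phosphatase of the pheromone and cell integrity MAP kinases, by 1.16 ± 0.15, and SCW10, a wall glucanase gene, by 0.39 ± 0.10 (SE). With the culture as a block FAR1 fell in the mutant by 0.88 (limma adjusted p = 0.0352). The call for SCW10 was lost without 5 of 6 single arrays (adjusted p up to 0.146 without the untreated sample numbered 3). The median log2 change of the list was 0.05 in the mutant and 0.09 in wild type, beside 1.95 to 2.88 in the mutant for AFR1 and PRM5. The rises of AFR1 and PRM5 were used in choosing them, so this contrast with the list gives no separate support. Between the strains averaged over treatment, 7 of the 18 were lower in the mutant, 0 were higher and 11 did not pass. The list's median was -1.19. Wild type culture 3 read lowest of the wild type cultures for 16 of the 18 genes and for 7 of the 9 other PRM genes. The share of all genes lowest in that culture was not counted. Some of these gaps were slight, as for SCW10 at 11.8826 against 11.8845 in the next culture, and others were wide. FIG1, for example, had culture means of 3.67 to 4.06 in the mutant, against 8.19, 8.67 and 3.86 in wild type. AGA1 had culture means of 7.79 to 8.38 in the mutant, against 10.82, 10.997 and 8.53 in wild type. Without that culture 14 of the 18 were lower in the mutant, AGA1, AGA2, ASG7, FIG1, FIG2, FUS2 and KAR5 being added, and 6 of the 9 PRM genes. Without the wild type culture numbered 1 or 2 the count of the 18 was 2, without the mutant culture numbered 2 it was 3, and without the mutant culture numbered 1 or 3 it was 4. SRL3, PRM5 and AFR1 kept their calls without wild type culture 3 (limma adjusted p = 0.031, 0.0167 and 0.0411).

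FAR1, which arrests the cell cycle in response to pheromone, was at -3.25 ± 0.42 and SST2, a regulator of the pheromone G protein, at -2.11 ± 0.23 (SE; limma adjusted p = 0.0084 and 0.00526). Both calls were kept without each single culture. FUS1, a cell fusion gene, was at -2.88, BAR1, the gene of the alpha factor protease, at -2.84, KAR4 at -1.26, the kinase gene FUS3 at -1.12 and the G protein gene GPA1 at -1.10, and each of these 5 calls was lost without some single cultures. Their adjusted p reached 0.0945 for FUS1, 0.0655 for BAR1, 0.147 for KAR4, 0.118 for FUS3 and 0.0789 for GPA1, each without the wild type culture numbered 2. The list moved in the same direction between the strains as PRM5 and AFR1, and its part in their lower level was not tested. Of the 5 a-cell markers MFA1, STE6 and BAR1 were lower in the mutant, MFA1 by 3.72 ± 0.39 (SE; adjusted p = 0.00504), and the other two, MFA2 and STE2, had estimates of -1.07 and -1.01. The call for STE6 was lost without 5 of 6 single cultures (adjusted p up to 0.137 without the wild type culture numbered 2).

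SRL3 was set beside genes of the G1/S transition and of the Rad53 checkpoint, in which it was named as a suppressor. Of 15 G1/S genes 1 rose with Congo Red in the mutant, SVS1, a wall protein gene, by 0.83 ± 0.15, and it rose in wild type by 0.68 ± 0.15 (SE). HO, the mating type endonuclease gene, fell in wild type by 0.85 ± 0.17 (SE). The cyclin genes CLN1 and CLN2 and the factor genes SWI4 and SWI6 did not pass in either strain with all 12 arrays and no block, and CLN2 passed in wild type without both mutant arrays numbered 3 (adjusted p = 0.0431). With the culture as a block 4 genes of the list rose in wild type, the cyclin genes CLN2, CLN3 and PCL1 being added at 0.40, 0.48 and 0.48. Under the block more of all genes tested were called as well, as stated at the end. Averaged over treatment SVS1, HO, the cyclin gene PCL2 and MSA1 were lower in the mutant, at -1.08, -1.30, -0.83 and -0.72, and 11 did not pass. The SVS1 rise in the mutant and the strain calls for PCL2 and MSA1 were each lost without some single samples (adjusted p up to 0.0945 without the mutant Congo Red sample numbered 2, 0.0688 without the mutant culture numbered 2 and 0.117 without the wild type culture numbered 2). The SVS1 rise in wild type was lost without the untreated sample numbered 3 (adjusted p = 0.0645). Of 6 measured Rad53 and SRL genes, RAD53, MEC1, DUN1, SML1, SRL1 and SRL2, 0 passed in any of these contrasts, with limma adjusted p no lower than 0.08. SRL2 fell in wild type by 0.32 when the culture was a block (adjusted p = 0.0284).

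AFR1 was set beside genes of the mating projection and the septin ring, to which its product binds. None of 10, among them STE2, the septin genes CDC3, CDC10, CDC11, CDC12 and SHS1 and the polarity genes SPA2, PEA2 and BNI1, passed with Congo Red in either strain or between the strains. STE2 came nearest between the strains, at -1.01 ± 0.26 (SE; limma adjusted p = 0.065), and passed with the sample number as a block (adjusted p = 0.00712) and without the wild type culture numbered 3 (adjusted p = 0.0478).

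Likeness over the 12 arrays was measured by Pearson's r between log2 values, a description in which all genes share the same arrays and the same 4 groups. PRM5 and AFR1 had an r of 0.958 with each other, SRL3 and PRM5 one of 0.947, and SRL3 and AFR1 one of 0.902. The 3 genes were chosen on their rises over these same arrays, so a high r among them is in part built in. AFR1 ranked 54 among the genes most like SRL3, and SRL3 ranked 38 among those most like AFR1. The genes most like SRL3 were MSB3, a Rab GTPase activating protein gene, at 0.981, YDL057W at 0.973 and GFA1, the first enzyme of the hexosamine pathway, at 0.967. Those most like PRM5 were CIS3, a PIR family wall protein gene, at 0.965, the kinase gene TDA1 at 0.964 and YPS3 at 0.961. Those most like AFR1 were CIS3 at 0.979, the manganese transporter gene SMF1 at 0.97 and OPI10 at 0.966. Apart from YPS3, these genes moved over a smaller range. CIS3, for example, was 0.40 higher with Congo Red in the mutant, 0.43 higher in wild type and 0.29 lower in the mutant averaged over treatment.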

How the data were processed

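Values were the log2 expression values per probe set deposited by the authors, which come from GCRMA (per the submitters' processing notes, without a version). As usually run, GCRMA models background from probe sequence and normalizes arrays by quantiles, so a shift of all transcripts would not be seen, and folds of dim genes depend on its background step. The table held 5716 probe sets, of which 5498 had 1 gene symbol, 0 several and 218 none. The platform annotation gave the symbols, and 12 were updated through the RefSeq gene table of assembly R64, used only for names and neighbours. Where a gene had more than 1 probe set (47 genes), that of highest mean was kept. SRL3, PRM5 and AFR1 each had 1. Of 5449 genes, 5345 were over log2 4 on at least 3 of 12 arrays.

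Groups and numbers came from the sample titles. Limma 3.58.1 in R 4.3.3 was fitted to 4 group means on 12 arrays for the Congo Red contrasts and, for the strain difference, to the mean of both portions of each culture, 3 against 3, with Benjamini-Hochberg adjustment over 5345 genes and a threshold of 0.05. Deviations from the group means correlated between same-numbered portions at 0.57 to 0.84 in the mutant and 0.53 to 0.74 in wild type, so the number was taken to pair them; the labels describe divided cultures but do not tie the numbers to them, and the culture was used as a block in a second fit. Between the strains the culture means correlated at 0.55, 0.19 and 0.35 by number. The labels do not say how far the samples of a group were separate cultures, so p-values measure only the spread between these samples.

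The 3 genes, the gene lists and the contrasts were chosen with earlier results of these data known. Genes named are the 3, their paralogs and neighbours, GCN5 and auxotrophic markers, the 3 most correlated genes, the genes at least 2-fold higher in the mutant, and list members that passed or had the smallest p. The genes next in the wild type order and the genes called only under an alternative, FIG1 and AGA1 among them, were named after their values were seen. WSC1 and NCW2 were not analysed here. MF(ALPHA)1 and SRL4 were below the filter. The fits were checked on simulated data, with 4 false calls for the mutant rise and 19 for the strain difference. The simulated noise was independent between arrays, so this check does not bear on the pairing of portions or the choice of a block. Alternatives were median centring, other filters, other probe set and variance rules, blocks, and leaving out samples.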

Additional observations from a re-analysis of the deposited data

Results flagged for a closer look

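The Congo Red rise differed between the strains by the test of the difference itself for BAG7 (-1.8463 log2 units, mutant minus wild type), HAL1 (-1.4597) and YPL088W (-1.5646), the genes set beside SRL3, PRM5 and AFR1 because of that difference. Their choice rested on the same values, so the test gives no separate support. Groups of 3 arrays were not tested for single samples that stand apart.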

How the results depend on the processing

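In the mutant 58 genes were higher with Congo Red and 4 lower. With the culture as a replicate block these became 150 and 62, with only the 2 groups compared 15 and 0, without both mutant arrays numbered 3 (chosen after seeing the data) 36 higher, and with an intensity trend 2 lower. Leaving out 1 array gave 17 to 51 higher and 0 to 5 lower. In wild type 285 of the 5345 genes were higher and 209 lower. The block gave 658 and 614, so calls made only with it were common among all genes. Block calls named above were not set against that share. Leaving out 1 array gave 184 to 252 and 76 to 175 in wild type. For the difference 3 genes passed, with the trend 6, with the block 30 and leaving out 1 array 3 to 5. Averaged over treatment 182 genes were higher and 247 lower in the mutant; a random culture block gave 279 higher, 12 arrays counted separately gave 617 and 629, and leaving out 1 culture gave 41 to 154 and 83 to 242. The strain difference ran from -0.88 to -0.68 for SRL3 and from -1.46 to -1.01 for AFR1 over left-out cultures, where both lost their calls as given above, and from -1.37 to -1.10 for PRM5. Leaving out 1 array gave a mutant rise of 2.72 to 3.14 and a difference of 0.59 to 1.02 for PRM5. In linear signal, chosen after seeing the data, the difference of the rises was -745.788 for SRL3, -459.856 for AFR1 and -858.42 for PRM5, whose log2 difference of 0.75 is thereby reversed; the change of scale is the cause. Beyond those given beside the results, the replicate block changed no call of SRL3, PRM5 or AFR1 between the strains. Signals near log2 4 limit what dim genes can show.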
